A study of Rattus norvegicus with 19 samples.

Results

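Potassium channel genes were examined in rat neurons cultured from 3 brain regions, together with the enhancer RNA measured around them. The members were every gene whose symbol starts with Kcn, apart from Kcnf1, which left 89 of the 17715 genes in the deposited table. Enhancer RNA was measured over transcriptionally active putative enhancers (TAPEs), which are intergenic regions of open chromatin transcribed from both strands. Of 27538 TAPEs, 193 had their centre less than 100 kb from the transcription start site of a Kcn gene, and they formed 213 of the pairs of a TAPE and a gene. A Kcn gene lay within that distance for 64 of the 89 genes, and the other Kcn genes had no TAPE that close. The neurons came from cortex, hippocampus or striatum of Sprague-Dawley rats at embryonic day 18 and were kept for 11 days in vitro. Each culture then received vehicle (Neurobasal medium) or potassium chloride (KCl), which depolarizes the membrane, for 1 h, and total RNA depleted of ribosomal RNA was sequenced. Each region had 3 vehicle and 3 KCl libraries, except for 4 vehicle libraries in striatum, which gave 19 libraries in 6 groups. For KCl, 25 mM is the concentration on the samples, whereas the text on the whole series has 10 mM. The sources do not tie the libraries to animals or litters, so p-values measure the spread between these libraries, part of which may be technical.

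Potassium channels let potassium leave the cell, which sets the resting potential, repolarizes the action potential and limits repetitive firing. Voltage-gated (Kv) channels are built from pore subunits, with silent modifier subunits and cytoplasmic accessory proteins that change their gating or delivery to the membrane. Inward rectifiers and two-pore-domain leak channels hold the membrane near rest, and calcium- or sodium-activated channels open after a burst of firing. By family, the members comprised 15 Kv pore genes (Kcna, Kcnb, Kcnc, Kcnd), 9 Kv modifier genes (Kcng, Kcns, Kcnv), 5 Kv7 genes (Kcnq), 8 genes of the EAG, ERG and ELK channels (Kcnh), 15 inward rectifiers (Kcnj), 13 leak channels (Kcnk), 8 calcium- and sodium-activated channels (Kcnma, Kcnn, Kcnt, Kcnu) and 16 accessory genes (Kcnab, Kcne, Kcnip, Kcnmb, Kcnrg).

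Library depth, read from the smallest step of the TAPE values, was 46400000 to 72500000 reads, which is more than the labels state per sample. The values of the genes themselves were not in the table. They were solved from the deposited correlations of each gene with its TAPEs, which gave whole read numbers in every library for 84 of the 89 Kcn genes and for 16733 of all 17715 genes (94.5%). Kcng4, Kcnh8, Kcnip4, Kcnj14 and Kcns2 could not be solved. Gene levels are given as RPM (reads per 1000000 library reads) and are not divided by gene length, so they compare libraries and not genes. The KCl labels were checked with 10 activity response genes, such as Fos and Npas4, whose summed level was 163.2 to 463.2 RPM in vehicle libraries and 1492 to 3358 in KCl libraries. Cortical neuron markers summed to 663.0 to 695.5 in cortex, 701.5 to 745.4 in hippocampus and 2.34 to 3.04 in striatum. The library called cortex vehicle replicate 3 here is cortex by its title but striatal by its tissue label, and its markers lay with the other cortex libraries. In bulk RNA, fewer cells of a type and less RNA per cell cannot be told apart.

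The first question was whether 1 h of depolarization changed the RNA of the channel genes. Exact permutation of the treatment labels within regions called 19 of the 84 genes (22.6%, beside 21.1% of all 16733 genes), of which 4 were higher and 15 were lower with KCl. The higher genes were the inward rectifiers Kcnj2 and Kcnj4 and the leak channels Kcnk1 and Kcnk9. Lower genes included Kcnk2, Kcnk3, Kcnk10, Kcnrg, Kcnip1, Kcnmb4, Kcnh1, Kcnh3, Kcnma1, Kcnn3, Kcnq3, Kcng2, Kcna5 and Kcnj6. Over all genes 6.07% were called higher and 15% lower. The Kcn counts lay near that background and are no result particular to channel genes. Calls of 12 of the 19 genes held whichever library was left out. The exceptions were Kcnn3 (adjusted p up to 0.051, permutation test) without hippocampus KCl replicate 2, Kcng2 (up to 0.12) without hippocampus KCl replicate 1 or 2, and other genes that rested on more libraries. Kcna5 was lost without striatum KCl replicate 5 or any striatum vehicle library (up to 0.076, permutation test). Kcnj2 was lost without cortex vehicle 3, cortex KCl 1 or 3, striatum vehicle 4 or 6 or striatum KCl 5 (up to 0.086, permutation test). Kcnk10 was lost without cortex vehicle 3, replicate 2 of either hippocampal group, or striatum KCl 5 or 7 (up to 0.056, permutation test). Kcnj6 was lost without any of 13 of the 19 libraries (up to 0.076, permutation test). With ranks in place of profile values 13 genes were called, and the calls lost included those of Kcnj2 (0.12), Kcnk1 (0.069) and Kcnk9 (0.16) among the higher genes and Kcna5 (0.29), Kcng2 (0.1), Kcnj6 (0.098) and Kcnk10 (0.12) among the lower (adjusted p, permutation test). The smallest p that its 14000 arrangements can give is 7.1e-05.

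Fold changes came from limma on log2(RPM + 0.1), a test chosen after the data were seen, for the 64 Kcn genes that averaged at least 0.5 RPM. The other 20 genes solved were below that level: Kcna7, Kcna10, Kcne1, Kcne3, Kcne4, Kcnh6, Kcnj1, Kcnj5, Kcnj8, Kcnj13, Kcnj15, Kcnk7, Kcnk15, Kcnk16, Kcnk18, Kcnmb1, Kcnn4, Kcns1, Kcnu1 and Kcnv2. With Benjamini-Hochberg adjusted p-values from limma over 11982 genes, 6 Kcn genes were called in cortex (background 5.3%), 9 in hippocampus (12.9%) and 17 in striatum (27.6%). Called genes were 4 higher and 2 lower in cortex (background 4.57% and 0.734%), 1 higher and 8 lower in hippocampus (4.68% and 8.18%), and 2 higher and 15 lower in striatum (7.69% and 19.9%). That direction depended on scaling. With each library centred on its median gene, the split was 4 higher and 2 lower in cortex, 2 and 7 in hippocampus, and 8 and 6 in striatum, while the share of higher genes among all calls in striatum went from 27.9% to 67.1% and in hippocampus from 36.4% to 50.8%. For the mean effect over the 3 regions, 24 Kcn genes were called (34.1% of all genes), 4 higher and 20 lower (9.74% and 24.4%), or 5 higher and 12 lower after centring, where the higher share of all calls went from 28.6% to 54%. The 64 genes had a median log2 fold change of -0.08, -0.09 and -0.09 in cortex, hippocampus and striatum, beside -0.04, -0.04 and -0.05 over all genes. Of the 19 genes called by the permutation test, 18 were among these 24. The KCl effect differed between the regions for 5 of the 64 genes (interaction, background 4.01%).

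**Figure D1:**
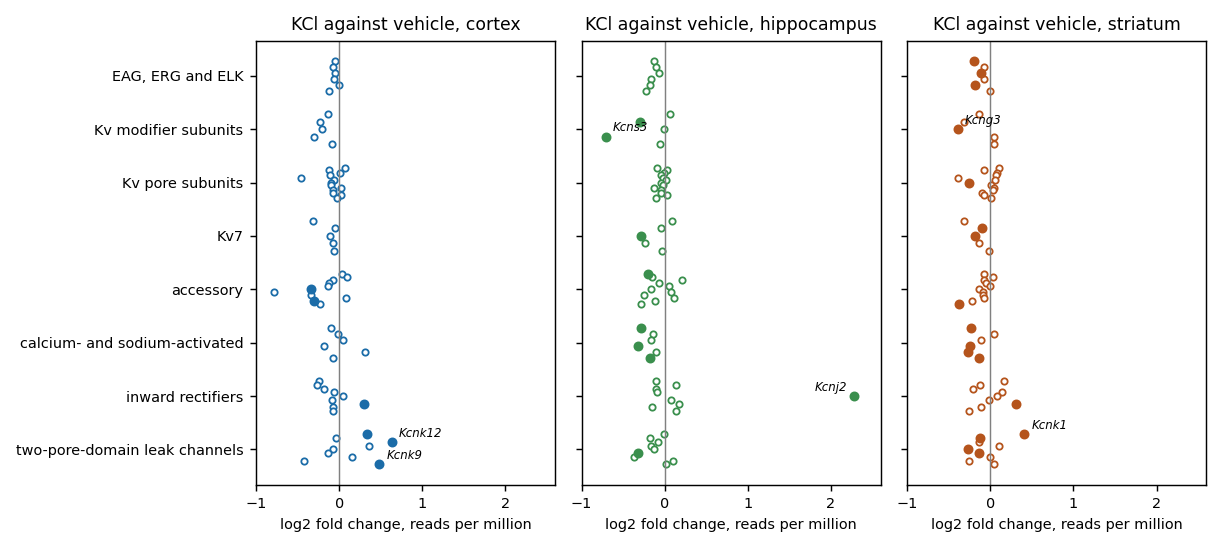
Log2 fold change of KCl over vehicle (x axis, RPM) for the 64 Kcn genes tested, by channel family (y axis), in cortex, hippocampus and striatum. Filled points passed an adjusted p of 0.05 (limma) and open points did not, and the point far to the right is Kcnj2 in hippocampus at 2.28.

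Kcnj2 (Rn6, chromosome 10, 99437436 to 99439114), which encodes the inward rectifier Kir2.1 that clamps the resting potential, had the largest called fold change of the 64 genes. Among all 11982 genes, the KCl libraries lay wholly above the vehicle libraries for 9.49%, 9.86% and 9.75% in cortex, hippocampus and striatum, and wholly below for 12.9%, 20.3% and 24.7%. The Kcnj2 level in hippocampus was 1.49, 1.27 and 0.996 RPM in the vehicle libraries and 6.81, 6.24 and 6.11 in the KCl libraries. The groups did not overlap, and the level with KCl was 5.1 times that with vehicle (log2 fold change 2.28, SE 0.16, adjusted p = 1.1e-08, limma). In cortex it was 11.8, 11.7 and 11.6 with vehicle and 12.2, 11.5 and 12.5 with KCl (log2 fold change 0.04, SE 0.08, adjusted p = 0.85, limma). In striatum it was 3.96, 3.47, 3.8 and 4.06 with vehicle and 3.85, 4.65 and 3.64 with KCl (0.08, SE 0.12, adjusted p = 0.68, limma). Vehicle and KCl overlapped in both of those regions, and the KCl-treated hippocampal libraries remained below every cortical library. The effect differed between regions (interaction adjusted p = 6.2e-10, limma), and both this and the hippocampal call held in every fit that left out a library. In the 300 bases around its start (250 before, 50 after) in RefSeq on GRCr8, chr10:96559975-96560274 on the plus strand, none of the activity motifs searched was found, and the sequence is shown as that of the strongest responder:
Kcnj2: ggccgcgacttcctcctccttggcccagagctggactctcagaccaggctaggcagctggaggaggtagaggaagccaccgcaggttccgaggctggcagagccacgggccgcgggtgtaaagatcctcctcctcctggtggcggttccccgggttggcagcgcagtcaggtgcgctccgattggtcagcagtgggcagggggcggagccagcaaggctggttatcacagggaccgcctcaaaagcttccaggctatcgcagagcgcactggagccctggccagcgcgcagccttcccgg

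Kcnj4 (chromosome 7, 120717375 to 120744602) encodes Kir2.3, another strong inward rectifier. Its level in striatum was 40.5, 39.7, 43.2 and 44.3 RPM with vehicle and 54.5, 51.8 and 49.3 with KCl, with no overlap (log2 fold change 0.31, SE 0.05, adjusted p = 0.00028, limma). In cortex the values were 27.1, 32.6 and 28.3 against 37.2, 35.8 and 34.8 (0.30, SE 0.08, adjusted p = 0.048, limma), and in hippocampus 29.4, 32.7 and 28.1 against 37, 31 and 33.5 (0.17, SE 0.07, adjusted p = 0.14, limma). The cortical call rested on most of its libraries, since it was lost without vehicle replicate 1 or 3 or any KCl library (adjusted p up to 0.23, limma). Across regions Kcnj4 rose by 0.26 (SE 0.04, adjusted p = 3.2e-05, limma) and no difference between regions was called (interaction adjusted p = 0.73, limma). Among the other inward rectifiers, Kcnj6 (Kir3.2, a subunit opened by G proteins) fell slightly over the 3 regions (-0.11, SE 0.04, adjusted p = 0.03, limma), a call lost without any of 8 libraries (up to 0.077) and after median centring (0.2). The Kcnj4 promoter is shown because it holds the core TGACG of the cAMP response element, read on either strand and set in capitals (GRCr8, chr7:112954498-112954797, minus strand):
Kcnj4: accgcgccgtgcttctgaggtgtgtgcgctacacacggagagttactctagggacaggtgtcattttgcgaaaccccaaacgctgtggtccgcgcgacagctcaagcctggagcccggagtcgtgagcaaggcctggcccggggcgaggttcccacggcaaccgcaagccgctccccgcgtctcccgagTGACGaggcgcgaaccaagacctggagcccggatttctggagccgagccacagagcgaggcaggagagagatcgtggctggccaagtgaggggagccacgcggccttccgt

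Motifs were searched on both strands of the RefSeq windows, which were found by symbol for 60 of the 89 genes. The core TGACG or CGTCA was in 21.7% of the 60 windows and in 22% of all 27457. The full cAMP response element TGACGTCA, which contains the core on both strands, was in 0% against 1.91%, the AP-1 site TGANTCA in 5% against 7.33%, the early growth response site GCGNGGGCG in 8.33% against 5.29%, the serum response CArG box in 0% against 1.64% and the E-box CACGTG in 5% against 6.65%. The median GC content was 61.3% in the Kcn windows and 52.3% in all windows. Kcnk1, Kcnk9 and Kcnk12 had no entry.

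Two-pore-domain leak channels, which carry the background potassium conductance, included 3 of the 4 genes that rose in cortex (4.57% of all genes rose there). Of 9 genes tested in this family, 1 fell in hippocampus (background 8.18%), and 1 rose and 3 fell in striatum (7.69% and 19.9%). Kcnk9 (TASK3, chromosome 7, 113903557 to 113937941) was at 56.5, 62.8 and 58.9 RPM in cortex vehicle libraries and at 81.7, 83.4 and 83.1 with KCl, a rise without overlap (log2 fold change 0.48, SE 0.06, adjusted p = 0.00016, limma). In hippocampus it was 15.8, 16.2 and 15.7 against 17.7, 15.2 and 15.4 (0.01, SE 0.08), and in striatum 89.1, 91.1, 87.8 and 86.9 against 92, 93 and 91.2 (0.05, SE 0.03, adjusted p = 0.2, limma, and 0.0031 after median centring). The Kcnk9 model overlaps Trappc9 on the same strand, so reads of one may be counted for the other. Trappc9 changed by 0.17 in cortex (adjusted p = 0.073, limma) and 0.03 in hippocampus (adjusted p = 0.68, limma). It was called higher in striatum (0.10, adjusted p = 0.007, limma) and over the 3 regions (0.10, adjusted p = 0.00026, limma). Kcnk12 (THIK2, chromosome 6, 11373917 to 11494459), named after its values were seen, was at 12, 12.5 and 12.8 in cortex vehicle libraries and 20.8, 20.1 and 17.3 with KCl (0.63, SE 0.09, adjusted p = 0.00063, limma). Its hippocampal libraries had 8.81, 9.95 and 8.95 against 8.73, 7.41 and 10.2, and its striatal libraries 5.84, 5.56, 5.85 and 6.7 against 5.59, 5.07 and 5.67. Vehicle and KCl overlapped in both. The KCl effect differed between regions for Kcnk9 (interaction adjusted p = 0.00015, limma) and Kcnk12 (0.0015), and these calls and the cortical ones held without any single library.

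Kcnk1 (TWIK1, chromosome 19, 58823814 to 58862926) rose in striatum and cortex. In striatum it was 7.71, 8.26, 9.54 and 8.36 RPM with vehicle and 12, 10.9 and 10.8 with KCl (log2 fold change 0.41, SE 0.09, adjusted p = 0.0029, limma), with no overlap. In cortex it was 11.8, 11.4 and 12.7 against 14.7, 15.4 and 15.2 (0.34, SE 0.08, adjusted p = 0.032, limma), also without overlap, but the call was lost without vehicle replicate 1 or 2 or KCl replicate 2 or 3 (up to 0.14). In hippocampus it was 21.9, 22.5 and 20.9 against 21.1, 21.3 and 22.3 (-0.01, SE 0.06, adjusted p = 0.93, limma). The difference between regions passed (interaction adjusted p = 0.033, limma) but was lost without cortex vehicle 1, striatum vehicle 2 or 4, striatum KCl 1 or any hippocampal library other than vehicle 3 (up to 0.1). Other leak channels fell over the 3 regions. Kcnk2 (TREK1), a channel opened by stretch and lipids, was at 27.5, 26.1, 27.6 and 26.3 in striatum with vehicle and 23.1, 21.8 and 21.8 with KCl (-0.27, SE 0.05, adjusted p = 0.00088, limma), with no overlap. Across regions Kcnk2 changed by -0.16 (SE 0.03, adjusted p = 0.00075, limma), the acid-sensitive Kcnk3 (TASK1) by -0.20 (SE 0.04, adjusted p = 0.00016, limma) and Kcnk10 (TREK2) by -0.12 (SE 0.03, adjusted p = 0.0083, limma, and 0.073 after median centring).

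**Figure D2:**
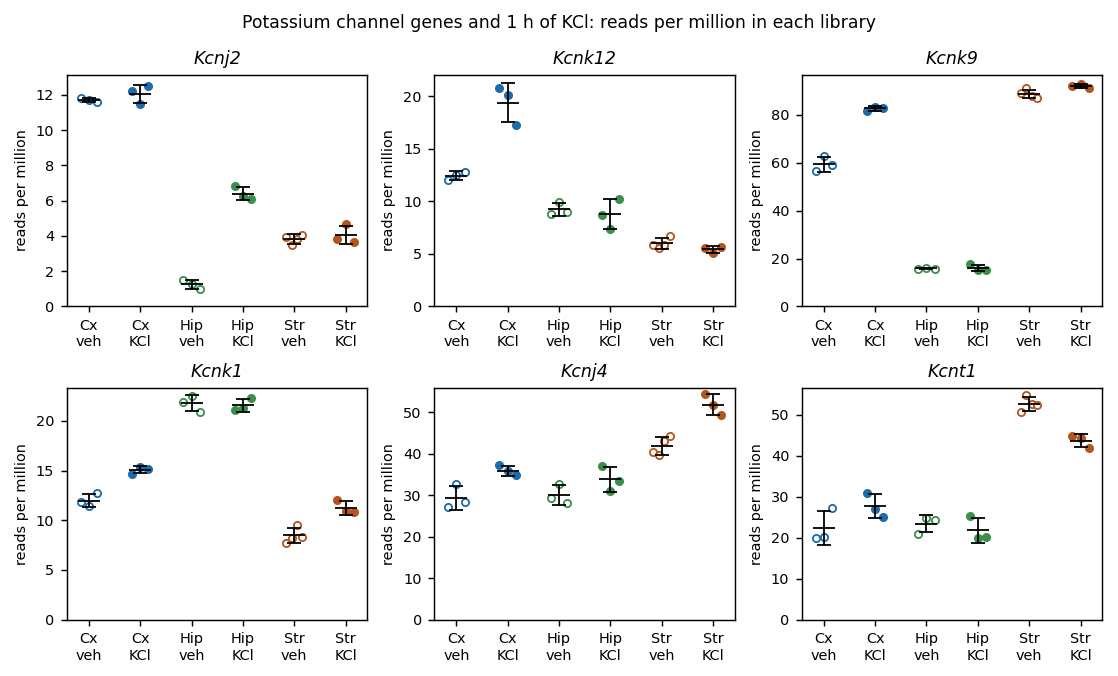
RPM in each library (y axis) of 6 Kcn genes in the 6 groups (x axis: Cx, cortex; Hip, hippocampus; Str, striatum; veh, vehicle). Open points are vehicle and filled points KCl libraries, with the mean and SD as bars, and Kcnj2 shows the step from 0.996 to 1.49 with vehicle up to 6.11 to 6.81 with KCl in hippocampus.

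Calcium- and sodium-activated channels, which produce afterhyperpolarizations, had 6 genes tested. In cortex 0 were called by limma (background 5.3%), with 1 at an unadjusted p under 0.05, and 0 with voom weights. By contrast, 3 fell in hippocampus (background 8.18%) and 4 in striatum (19.9%). Kcnma1, the pore of the large-conductance BK channel, was at 227.4, 233.7, 215.9 and 224.9 RPM in striatum with vehicle and at 190.6, 194.8 and 189.9 with KCl (log2 fold change -0.23, SE 0.03, adjusted p = 5.1e-05, limma). In hippocampus it was at 244.8, 292.7 and 274.7 against 235.8, 212.8 and 220.0 (-0.28, SE 0.05, adjusted p = 0.0023, limma). The groups did not overlap in either region, and both calls held without any single library. Cortical values were 343.3, 295.0 and 383.5 against 320.4, 313.6 and 312.1 (-0.10, SE 0.08, adjusted p = 0.57, limma), which overlapped. Kcnn3 (SK3), a small-conductance channel, changed by -0.25 over the 3 regions (SE 0.06, adjusted p = 0.0028, limma) and the sodium-activated Kcnt2 by -0.13 (SE 0.04, adjusted p = 0.017, limma, and 0.11 after median centring). Kcnt1 (chromosome 3, 3310954 to 3365340), the other sodium-activated channel, named after its values were seen, was at 50.7, 54.7, 52.5 and 52.4 in striatum with vehicle and 44.8, 44.4 and 41.8 with KCl (-0.27, SE 0.04, adjusted p = 0.00022, limma). In cortex it was at 19.9, 20.1 and 27.2 against 30.9, 27 and 25.1 (0.31, SE 0.12, adjusted p = 0.2, limma), which overlapped through vehicle replicate 3. Its difference between regions (interaction adjusted p = 0.032, limma) was lost without replicate 1 or 2 of either cortical group, striatum vehicle 4, 6 or 8 or any striatum KCl library (up to 0.14).

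Accessory genes fell where they were called. Of 11 tested, 2 were lower in cortex (background 0.734%), 1 in hippocampus (8.18%), 1 in striatum (19.9%) and 5 over the 3 regions (24.4%). Kcnip1, a calcium-binding partner of Kv4 channels whose model overlaps Kcnmb1 on the opposite strand, was at 23.3, 19.4 and 22.5 RPM in cortex with vehicle and 17.4, 16.8 and 17.2 with KCl (log2 fold change -0.34, SE 0.08, adjusted p = 0.036, limma). Kcnmb4, the neuronal beta subunit of the BK channel, was at 28.5, 27.6 and 29.1 against 23.8, 21.6 and 23.9 there (-0.30, SE 0.07, adjusted p = 0.027, limma). The groups did not overlap for either gene, but the Kcnip1 call was lost without 4 of the 6 cortical libraries (vehicle 1 and 3, KCl 2 and 3, up to 0.2) and the Kcnmb4 call without 5 (all but KCl 1, up to 0.16). For the mean effect, where each fit without a library kept both calls, Kcnip1 changed by -0.21 (SE 0.04, adjusted p = 0.00019, limma) and Kcnmb4 by -0.21 (SE 0.04, adjusted p = 0.00044, limma). Kcnrg, a cytoplasmic protein that hinders assembly of Kv channels, changed by -0.29 (SE 0.05, adjusted p = 0.00011, limma), and its striatal libraries had 6.32, 6.63, 6.83 and 6.18 with vehicle against 5.1, 4.79 and 5.06 with KCl. Kcnip3 (DREAM), a calcium-sensing partner of Kv4 that also represses transcription, changed by -0.23 (SE 0.06, adjusted p = 0.0027, limma).

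Among the 13 Kv pore genes tested, limma called 0 in cortex (background 5.3%) and 0 in hippocampus (12.9%). At an unadjusted p under 0.05 there were 1 and 2, and voom weights called 0. Kcnd3, an A-type channel, had 255.1, 253.6, 258.9 and 271.0 against 264.4, 262.4 and 256.7 in striatum (0.01, SE 0.03), and the 13 genes had a median log2 fold change of -0.07, -0.04 and 0.01 in cortex, hippocampus and striatum. Kv modifier genes had 5 tested, with 2 lower in hippocampus (background 8.18%) and 1 in striatum (19.9%). Kcns3 (Kv9.3), which was named after its values were seen, was at 2.69, 3.01 and 2.64 in hippocampus with vehicle and 1.5, 1.76 and 1.72 with KCl (-0.71, SE 0.15, adjusted p = 0.0057, limma). The difference between regions for Kcns3 was not called (interaction adjusted p = 0.058, limma).

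Kv7 channels carry the M-current that brakes repetitive firing. Kcnq3 was at 116.4, 134.5 and 131.8 RPM in hippocampus with vehicle and at 113.5, 97.9 and 101.5 with KCl (log2 fold change -0.29, SE 0.06, adjusted p = 0.0034, limma), and it fell by 0.18 in striatum on the log2 scale (SE 0.04, adjusted p = 0.0021, limma). The hippocampal call was lost without a filter (adjusted p = 0.16, limma) and the striatal call with all 6 groups in one fit (0.067). Of 6 Kcnh genes tested, limma called 0 in cortex (background 5.3%) and 0 in hippocampus (12.9%). At an unadjusted p under 0.05 there were 0 and 2, and voom weights called 0. In striatum Kcnh1, Kcnh3 and Kcnh5 were called, all 3 lower (19.9% of all genes were lower there), and all 3 calls were lost after median centring. Kcnh1 (EAG1) was at 49, 51.5, 51.2 and 48.7 in striatum with vehicle against 41.8, 45 and 45.1 with KCl (-0.19, SE 0.04, adjusted p = 0.0033, limma, and 0.054 after median centring). Kcnh3 (ELK2), whose model overlaps Spats2 on the same strand, changed by -0.08 over the 3 regions (SE 0.02, adjusted p = 0.013, limma, and 0.34 after median centring).

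Libraries that changed the counts by more than 1.5 times were these. In cortex 2 of the 6 calls held in every fit without a library, Kcnk9 and Kcnk12, and the count was 2 without vehicle replicate 1, KCl replicate 2 or KCl replicate 3. In hippocampus 4 of 9 held, Kcnj2, Kcnma1, Kcnq3 and Kcns3, and the count was 15 without vehicle replicate 1, 5 without vehicle replicate 2, vehicle replicate 3 or KCl replicate 3, and 4 without KCl replicate 2. In striatum 10 of the 17 gene calls held, and the count stayed between 12 and 15. For the mean effect it stayed between 20 and 26.

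Other genes of potassium handling were taken as a list of 24, of which 21 were solved and 18 tested by fold change. The permutation test called 6 of the 21 (28.6%, beside 21.1% of all genes), 3 higher and 3 lower (background 6.07% and 15%). Higher genes included Atp1b1, a subunit of the pump that returns potassium to the cell, and Slc12a2, a sodium, potassium and chloride importer. In hippocampus Slc12a2 went from 115.9 ± 4.69 to 157.2 ± 7.56 RPM (SD, n = 3 each), a log2 fold change of 0.44 (SE 0.04, adjusted p = 2.7e-06, limma), and its effect differed between regions (interaction adjusted p = 0.004, limma). Atp1b1 rose by 0.09 over the 3 regions (SE 0.02, adjusted p = 0.0042, limma). Lower genes included the chloride exporter Slc12a5 (-0.07, SE 0.02, adjusted p = 0.0084, limma) and the Kv4 partner Dpp6 (-0.07, SE 0.02, adjusted p = 0.02, limma).

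The second question was how the channel genes differed between the 3 culture types, with both treatments pooled. A limma F-test on standardized profiles called 69 of 84 Kcn genes (82.1%, beside 69.8% of all genes). The added test on RPM called 61 of 64 (95.3%, beside 85.4% of all genes). Of the 69, 18 were highest in cortex (26.1%), 29 in hippocampus (42%) and 22 in striatum (31.9%), beside 24.5%, 34.3% and 41.2% of all genes called. By family, 7 of 14 called Kv pore genes were highest in hippocampus and 1 in cortex, 5 of 8 calcium- and sodium-activated channels were highest in hippocampus, 4 of 7 Kcnh genes in striatum and 5 of 11 leak channels in cortex.

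Genes among the 10 with the smallest adjusted p (5.6e-13 to 2.2e-12, limma) were spread over the families, and values below are means ± SD in RPM over 6 cortical, 6 hippocampal and 7 striatal libraries. Kcnc4 (Kv3.4, Rn6 chromosome 2, 210220908 to 210241455), a fast A-type channel, was at 15.4 ± 0.616 in cortex, 28.7 ± 1.33 in hippocampus and 4.2 ± 0.32 in striatum. The silent subunit Kcng1 (Kv6.1) showed the same order with 19.9 ± 1.86, 44.5 ± 2.08 and 2.29 ± 0.287. For both genes every library of one region stood apart from every library of the others. Kcnn1 (SK1) was higher in hippocampus, with 6.19 ± 0.533, 19.6 ± 1.12 and 6.61 ± 0.595, and did not differ between cortex and striatum beyond its spread (adjusted p = 0.23, limma). Striatum was the highest region for the A-type Kcnd3 (Kv4.3) with 104.2 ± 5.33, 148.3 ± 8.14 and 260.3 ± 6.08, and for the fast-spiking channel Kcnc1 (Kv3.1) with 57.4 ± 3.24, 88.8 ± 3.93 and 131.8 ± 3.4. It was also highest for Kcnh2 (ERG1) with 17.9 ± 0.568, 16.6 ± 1.33 and 37.9 ± 1.57, where cortex and hippocampus did not differ beyond their spread (adjusted p = 0.075, limma), and for Kcnh5 (EAG2) with 12.1 ± 0.922, 5.32 ± 0.605 and 29.4 ± 2.05. Kcnq5 (Kv7.5) was highest in cortex, at 181.6 ± 7.24 against 125.3 ± 4.38 and 80 ± 1.89. Kcnh3 was at 93.4 ± 2.84, 102.5 ± 3.54 and 53.1 ± 2.53.

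**Figure D3:**
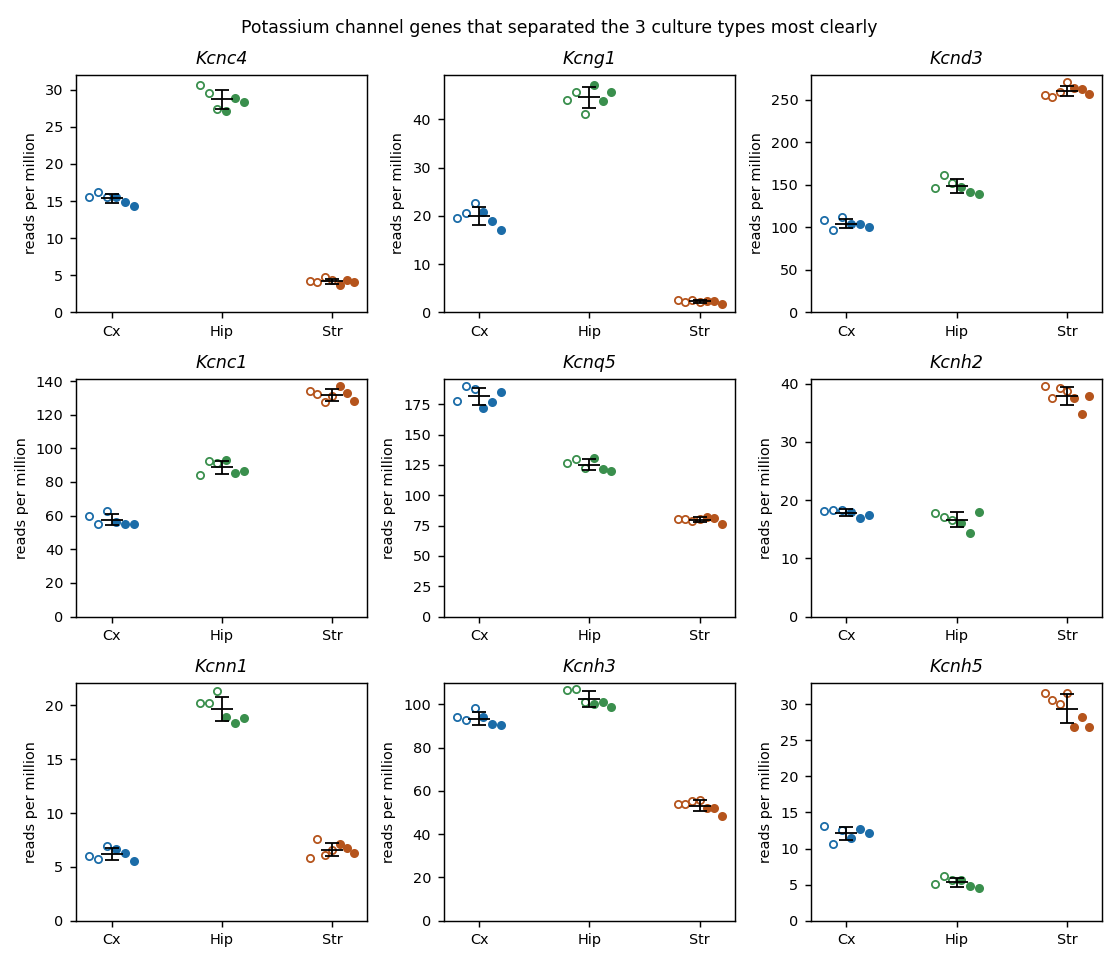
RPM in each library (y axis) for Kcn genes among the 10 with the smallest adjusted p between regions (x axis: Cx, cortex; Hip, hippocampus; Str, striatum), with open points for vehicle, filled points for KCl and bars for the mean and SD. Kcnc4 and Kcng1 sit highest in hippocampus and lowest in striatum, and Kcnd3 and Kcnc1 rise from cortex to hippocampus to striatum.

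Further genes, some of them at low levels, also differed between regions. Kcna5 (Kv1.5) was at 1.89 ± 0.332 RPM in striatum and 0.139 ± 0.0627 and 0.137 ± 0.0406 in cortex and hippocampus (cortex minus striatum -3.08 on the log2 scale, adjusted p = 1.2e-12, limma). Kcng2 (Kv6.2) was at 18.2 ± 2.39 in hippocampus, 2.44 ± 0.384 in cortex and 0.413 ± 0.118 in striatum, and Kcne5, a small accessory subunit, at 6.45 ± 0.748 in cortex, 3.01 ± 0.125 in hippocampus and 1.38 ± 0.0978 in striatum. Kcna1 (Kv1.1) was at 32.4 ± 1.96 in hippocampus against 11.9 ± 1.05 and 12.3 ± 1.22, of which the last pair did not differ beyond its spread (adjusted p = 0.57, limma). Leak channel Kcnk3 was at 34.9 ± 2.11 in striatum against 13.8 ± 0.987 in cortex and 9.83 ± 1.23 in hippocampus, whereas Kcnk9 was at 16 ± 0.902 in hippocampus against 71.1 ± 13 and 90.2 ± 2.27. The overlapping Trappc9 was also lowest in hippocampus (cortex minus hippocampus 0.94, hippocampus minus striatum -1.28 on the log2 scale), and shared reads were not tested.

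Kcnj10 (Kir4.1) and Kcnj16 (Kir5.1), inward rectifiers best known from glia, were both highest in hippocampus. Kcnj10 was at 17.5 ± 2, 22.5 ± 1.85 and 5.74 ± 0.696 RPM in cortex, hippocampus and striatum, and Kcnj16 at 0.269 ± 0.132, 3.2 ± 0.449 and 0.155 ± 0.0927. The 6 astrocyte markers solved of 7 summed to 1073 to 1241 in cortex, 1870 to 1974 in hippocampus and 258.5 to 287.7 in striatum, and none was at 0. Among them Gfap was at 41.2 ± 8.24, 756.9 ± 10.8 and 3.47 ± 0.583 and Slc1a3 at 693.7 ± 53.5, 763.7 ± 10.9 and 193.7 ± 7.53. The markers did not share an order of regions, since Gja1 (155.6 ± 4.52, 114.3 ± 6.68 and 34.4 ± 2) and Aldh1l1 (21.6 ± 1.42, 8.84 ± 1.6 and 9.41 ± 1.61) were higher in cortex than in hippocampus. GABAergic markers summed to 251.8 to 282.9 in cortex, 328.1 to 371.0 in hippocampus and 2767 to 3219 in striatum. The part of these cell types in the regional differences of the channel genes was not tested.

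Enhancer RNA around the channel genes was sparse. The level of a TAPE is its CPKM, the reads per 1000000 library reads and per kilobase. The 193 TAPEs had a median of 0.00818 CPKM and of 16 reads over all 19 libraries together, beside 0.00794 CPKM and 16 reads for the 14340 other TAPEs under 100 kb from a gene. A mean of at least 0.05 CPKM was reached by 19 of the 193 (9.84%, against 9.15% of the others), so the other 174 were not tested. Kcnc4 had the most TAPEs, 12, while 12 genes had 1, and a Kcn gene was the nearest gene for 112 TAPEs. Averaged over the 193, the level in cortex was 0.0247 ± 0.00351 CPKM with vehicle and 0.0194 ± 0.000939 with KCl, in hippocampus 0.0262 ± 0.00269 and 0.0187 ± 0.00225, and in striatum 0.0275 ± 0.00103 and 0.0225 ± 0.000612 (SD over libraries). The other TAPEs went from 0.0231 to 0.0212, from 0.0224 to 0.0198 and from 0.0246 to 0.0211. These means were lower with KCl in all 3 regions in both sets and were not tested.

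The effect of KCl was tested only for the 19 TAPEs near channel genes that reached 0.05 CPKM, and changes of the other 174 are not known. On log2(CPKM + 0.05), limma called 0 of the 19 in cortex (background 0.321%), 0 in hippocampus (0.0535%) and 1 in striatum, which was lower (1.23%, of which 0.802% higher and 0.428% lower), with 1, 4 and 3 at an unadjusted p under 0.05, and with voom weights it called 0, 0 and 0. For the mean effect over the regions 3 were called, all lower (background 6.9%, of which 1.76% higher and 5.13% lower). KCl moved the median of all 1870 tested TAPEs by -0.09, -0.16 and -0.17 in the 3 regions and by -0.13 over them, and after centring each library on its median 2 of the 3 calls were left. No TAPE had a KCl effect that differed between regions (0 of 19, background 0.0535%, and 0 at an unadjusted p under 0.05, limma, and 0 with voom weights).

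The TAPE with the most enhancer RNA was at chromosome 16, 71082118 to 71083404 (Rn6), 84.2 kb from Kcnu1, the sperm-specific relative of the BK channel. Its CPKM in striatum was 0.766, 1.03, 0.684 and 0.738 with vehicle and 0.425, 0.33 and 0.477 with KCl, in hippocampus 0.357, 0.468 and 0.465 against 0.231, 0.219 and 0.233, and in cortex 0.461, 0.396 and 0.473 against 0.502, 0.274 and 0.148. The groups were apart in striatum and hippocampus and overlapped in cortex. The log2 fold change over the 3 regions was -0.75 (SE 0.14, adjusted p = 0.0017, limma) and was called in all alternatives run. In striatum alone it was -0.89 (SE 0.18, adjusted p = 0.031, limma), which was lost without any of the 7 libraries (up to 0.16) and in 5 of 6 other settings (up to 0.82). Kcnu1 itself was at 0.0219 ± 0.0373 to 0.209 ± 0.147 RPM in the 3 regions, and the nearest gene was Ddhd2, 7284 bases away.

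The TAPE at chromosome 3, 120162315 to 120164183, 76.1 kb from Kcnip3, was lower with KCl in the same test (log2 fold change -0.70, SE 0.16, adjusted p = 0.0058, limma). Its CPKM was 0.257, 0.273 and 0.469 against 0.196, 0.162 and 0.141 in cortex, 0.255, 0.313 and 0.3 against 0.187, 0.189 and 0.107 in hippocampus, and 0.301, 0.345, 0.342 and 0.25 against 0.152, 0.326 and 0.123 in striatum. Only striatum KCl replicate 5 reached the vehicle range of its region, and the nearest gene was Mrps5. The call was lost when TAPEs were not filtered (0.059). The third, at chromosome 4, 159112826 to 159115650, lay 35.2 kb from Kcna5 and 78.3 kb from Kcna1. Its CPKM in hippocampus was 0.138, 0.0914 and 0.16 with vehicle and 0.0124, 0.0375 and 0.0236 with KCl, with no overlap. In cortex it was 0.0568, 0.039 and 0.0946 against 0, 0.0357 and 0.0621, and in striatum 0.193, 0.0856, 0.208 and 0.122 against 0.134, 0.144 and 0.0746, and the groups overlapped in both. Its mean effect was -0.67 (SE 0.19, adjusted p = 0.029, limma), a call lost without vehicle 3 or KCl 1 of cortex, vehicle 3 or KCl 1 of hippocampus, or striatum KCl 7 (up to 0.072) and after centring or without the filter (up to 0.26). For the genes themselves the tests differed. Kcna5 was called lower by permutation (adjusted p = 0.028, permutation test) and not by limma (-0.29, SE 0.16, adjusted p = 0.16, limma). Kcnip3 was called lower by limma (-0.23, SE 0.06, adjusted p = 0.0027, limma) and not by permutation (adjusted p = 0.094, permutation test).

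Around the genes that rose with KCl no TAPE reached the level tested. Kcnj2 had 5 TAPEs under 100 kb with 4 to 31 reads each over all libraries. The closest, at 11861 bases, had a mean CPKM of 0.0178 in hippocampus with vehicle and 0.0486 with KCl. These means rested on 4, 0 and 0 reads against 6, 5 and 0, which overlapped. The mean of this TAPE went from 0.00747 to 0.0108 in cortex and from 0.0347 to 0.00964 in striatum. Its r with Kcnj2 over all libraries was -0.188. Kcnk12 had 3 TAPEs under 100 kb, with 112, 95 and 6 reads. The closest of these, at 8295 bases, had means of 0.043 and 0.0493 in cortex with vehicle and KCl. Its cortical reads were 14, 10 and 8 against 19, 5 and 4, which overlapped. In cortex the TAPE at 35321 bases went from 0.0606 to 0.0411 and the one at 46680 bases from 0.0251 to 0. Kcnj4 had 1 with 31 reads and Kcnk1 had 5 with 4 to 37 reads, and Kcnk9 had none that close.

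**Figure D4:**
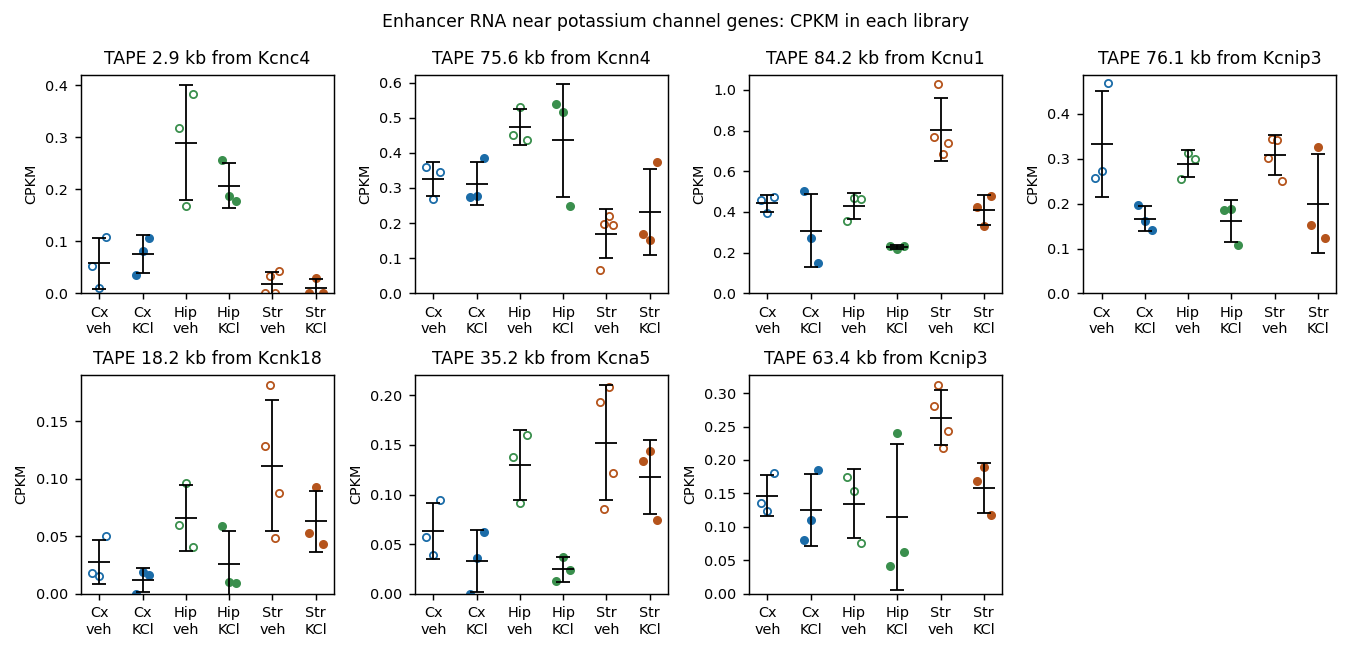
CPKM in each library (y axis) of TAPEs near Kcn genes that passed a test, titled by the Kcn gene and its distance, in the 6 groups (x axis: Cx, cortex; Hip, hippocampus; Str, striatum; veh, vehicle). Open points are vehicle and filled points KCl libraries with the mean and SD, and the TAPE 2.9 kb from Kcnc4 sits at 0.168 to 0.384 in hippocampus and at 0 to 0.0422 in striatum.

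Region separated more of the TAPEs. The limma F-test called 7 of the 19 (background 48.8%). The clearest lay at chromosome 2, 210243731 to 210244957, 2.9 kb from the start of Kcnc4 and nearest to it (adjusted p = 7.6e-08, limma). Its CPKM was 0.317, 0.168 and 0.384 in hippocampus with vehicle and 0.257, 0.187 and 0.177 with KCl. In cortex it was 0.0523, 0.0112 and 0.109 against 0.0351, 0.0823 and 0.107, and in striatum 0, 0.0328, 0 and 0.0422 against 0, 0.0301 and 0. Hippocampal libraries were all above cortical and striatal ones, which was also the order of the Kcnc4 gene. The TAPE 75.6 kb from Kcnn4 was at 0.319 ± 0.0507, 0.454 ± 0.108 and 0.196 ± 0.093 CPKM in cortex, hippocampus and striatum (adjusted p = 0.00034, limma), while the one 18.2 kb from Kcnk18 was at 0.0198 ± 0.0164, 0.0458 ± 0.0334 and 0.0905 ± 0.0501 (0.0063). Others were those near Kcnu1 (0.0086) and Kcna5 (0.015), given above, and one 63.4 kb from Kcnip3 (0.043), all with their highest mean in striatum. Kcnk18 and Kcnn4 were not above the level tested for genes.

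The third question was whether enhancer RNA and channel gene RNA rose and fell together over the libraries. The deposited Pearson correlation over 19 libraries had a median of 0.018 in the 213 Kcn pairs and 0.042 in the 34491 other pairs under 100 kb. It exceeded 0.5 in 16 Kcn pairs (7.51%, 95% Clopper-Pearson interval 4.35% to 11.9%, which covers counting error only) and in 7.6% of the other pairs, and it was below -0.5 in 1.41% and 1.89%. Pairs share TAPEs, genes and libraries, so these are descriptions. Pairs under 10 kb had the highest share above 0.5, 3 of 16 (18.8%, against 11.9%). Where TAPEs had a mean of at least 0.05 CPKM the share was 17.4% of 23 pairs, against 15.9%. Without striatum vehicle replicate 4, r exceeded 0.5 in 10 of 210 Kcn pairs (4.76%) and in 7.93% of other pairs. After subtraction of the 6 group means over all 19 libraries the share was 4.76%, against 4.42%.

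**Figure D5:**
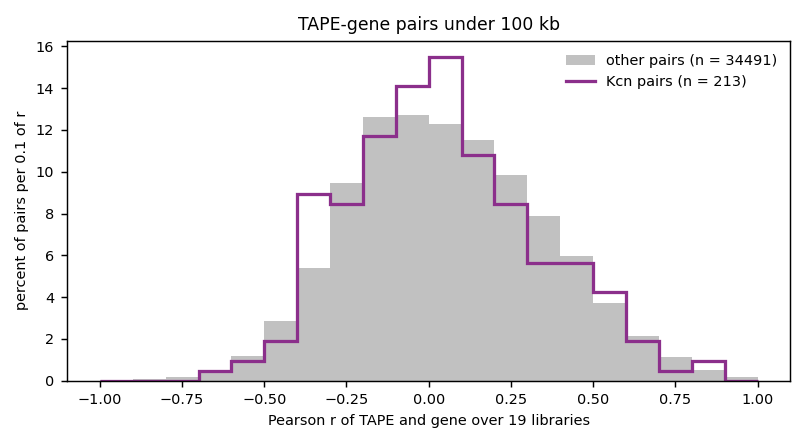
Percent of pairs (y axis) in steps of 0.1 of the Pearson correlation of TAPE and gene over 19 libraries (x axis), for 213 Kcn pairs (line) and 34491 other pairs under 100 kb (bars). Both distributions centre near 0, with medians of 0.018 and 0.042.

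The pair with the highest r was Kcnc4 and the TAPE 2.9 kb from its start (r = 0.85, Spearman rho = 0.82, n = 19). The value lay between 0.83 and 0.88 whichever library was left out. Hippocampal libraries stood apart from the others in the TAPE, while cortical and striatal libraries overlapped there. After the group means were subtracted r was -0.57. The TAPEs of the 3 pairs described next averaged under 0.05 CPKM and were chosen after their values were seen. They are not the next 3 by r, since pairs such as Kcna5 with a TAPE 15.8 kb away (0.69) and Kcnd3 (0.63) are passed over. A further Kcnc4 TAPE, at chromosome 2, 210205822 to 210209451 and 33.8 kb away, had r = 0.82 and 0.05 after subtraction. For Kcng1 and a TAPE 28.6 kb away r was 0.71, and 0.50 after subtraction. The pair of Kcnk12 and its TAPE at 8295 bases had 0.58, which was 0.33 to 0.69 with a library left out, and 0.50 after subtraction. Kcna5 and the TAPE 35.2 kb away had 0.64, and 0.15 after subtraction. Within single regions, with 6 or 7 libraries each, the extremes among TAPEs of at least 0.05 CPKM were Kcnab3 at 0.95 and Kcnc4 and Kcnma1 at -0.76 in cortex, Kcnip3 at 0.76 and Kcnmb2 at -0.88 in hippocampus, and Kcnu1 at 0.86 as the highest in striatum. The Kcnu1 gene had only 0 to 5 reads in each striatal library.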

How the data were processed

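Total RNA-seq libraries (19, in 6 groups taken from the sample titles) were represented by a single deposited table. Per the study's methods, the authors trimmed reads with Trim Galore 0.4.5, aligned them with STAR to Rn6 and quantified TAPEs in SeqMonk as CPKM (RPKM: reads per 1000000 reads and per kilobase, over both strands, duplicates kept). The authors also deposited Pearson correlations of TAPE CPKM with gene levels, here treated as a score. Gene levels were likewise taken by the authors as CPKM over SeqMonk gene probes, and how strand and introns were handled for genes is not given in the sources used here. TAPE reads were recovered by dividing each CPKM value by the value of 1 read (100.0% whole within 0.001). Gene reads per library were solved from the deposited correlations and TAPE values, then taken as the smallest whole numbers that fit the profile. This gave 16733 of 17715 genes with a largest distance from a whole read of 0.015, a next solution at 0.042 or more, and a largest error of 7.4e-15 in returning a correlation. A common factor of all reads of a gene would leave its correlations unchanged, so levels of different genes are not compared. The recovery was tested on simulated reads.

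TAPEs with a mean of at least 0.05 CPKM were tested with limma 3.58.1 (R 4.3.3) on log2(CPKM + 0.05). A fold change on this scale understates the change of low values. Gene profiles were tested by exact permutation within regions (two-sided) and a limma F-test. Fold changes of genes on log2(RPM + 0.1), with RPM the reads per 1000000 library reads, were added after the data were seen. A simulation of the cortex comparison over 11982 genes recovered 99 of 100 genes changed 1.5-fold and 100 of 100 changed 2-fold. At either fold it also made 15 false calls. All p-values were adjusted by the Benjamini-Hochberg method over all features, with a threshold of 0.05. Items named were TAPEs passing any test, the extreme pairs by r among TAPEs of at least 0.05 CPKM, and Kcn and potassium-handling genes passing a test, and genes outside this are marked as chosen after their values were seen. Python 3.11.15 was used for the rest. The members and gene lists were chosen with earlier results of these data known. Depth was 46400000 to 72500000 reads per library, of which 47431 to 83272 fell in TAPEs. Sequences of TAPEs were not used here, since promoter windows were given for GRCr8 only. Alternatives covered pseudocounts, filters, scaling, voom weights, samples in the fit, a replicate block and each library left out. Results for some genes and a TAPE are not reported here.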

Additional observations from a re-analysis of the deposited data

Results flagged for a closer look

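The KCl effect differed between the 3 regions for 5 of the 64 Kcn genes tested (7.81%, against 4.01% of all genes). Adjusted p-values of the limma interaction test were 6.2e-10 for Kcnj2, 0.00015 for Kcnk9, 0.0015 for Kcnk12, 0.032 for Kcnt1 and 0.033 for Kcnk1. Those of Kcnj2, Kcnk9 and Kcnk12 held in 19 of 19 fits that left out a library, Kcnk1 in 10 (0.0085 to 0.1) and Kcnt1 in 9 (0.00073 to 0.14). Kcnt1 was also lost without the filter (0.11). In hippocampus, where Kcnj2 rose, the summed level of the 10 activity response genes was 1492 to 1583 RPM with KCl, against 2676 to 2737 in cortex and 3197 to 3358 in striatum. The part of these differences in the response to KCl in the 5 interactions was not tested.

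Striatum vehicle was the only group of 4 libraries. In 2 of 38 checks of a gene or TAPE over those 4 libraries, a single library stood apart from the rest, where chance gives about 1 check in 20. Striatum vehicle replicate 8 had the highest Kcna1 level of its group, 13.9 RPM against 11 to 11.3. Striatum vehicle replicate 2 had the lowest CPKM of the TAPE at chromosome 1, 81154344 to 81155674 (Rn6), 75.6 kb from Kcnn4, with 0.0661 against 0.195 to 0.22.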

How the results depend on the processing

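For 60 called values of single genes and TAPEs recomputed in 1073 alternatives, 885 kept their direction and call, 188 kept the direction and lost the call, and 0 reversed. For TAPEs near Kcn genes, the single striatal call of KCl was 0 with a pseudocount of 0.01, without a filter, after median centring, with voom weights and with all 6 groups in one fit. The mean effect called 1 TAPE without a filter. Region called 14 without a filter and 4 with a mean of at least 0.1 CPKM. For genes, the count of KCl calls in cortex was 3 without a filter and 3 with a replicate block, in hippocampus 5 and 4, and in striatum 10 with all 6 groups in one fit. The share of Kcn pairs with r over 0.5 was 17.4% for TAPEs of at least 0.05 CPKM, 20.4% within cortex and 15.6% within hippocampus, where other pairs had 15.9%, 17.3% and 17.8%. Within striatum it was 10.9%, against 15.2%. The cause of these changes was not tested.

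With 1 library left out at a time, TAPE calls of KCl were 0 to 0 in each region, 2 to 3 over the 3 regions, 0 to 0 for the interaction and 6 to 8 for region. Gene calls were 2 to 6 in cortex, 4 to 15 in hippocampus, 12 to 15 in striatum, 20 to 26 over the 3 regions, 3 to 6 for the interaction (3 without striatum vehicle 4 or striatum KCl 1) and 61 to 62 for region. The permutation test called 14 to 23, the profile F-test 68 to 70, and the share of r over 0.5 was 4.76% (without striatum vehicle 4) to 8.57%. Ranks in place of profile values left 13 permutation calls. In cortex and hippocampus, deviations of same-numbered vehicle and KCl gene profiles correlated at -0.18 to 0.08. With so few libraries per group this cannot exclude a pairing, and striatum was not checked. With the replicate block, TAPE calls stayed at 0 in cortex and hippocampus.

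The main limit is depth in TAPEs. A median of 16 reads over all libraries left 174 of 193 TAPEs untested.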
